A study of Bos taurus with 12 samples.

Results

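RAB proteins are small GTPases that mark the membranes of the cell and recruit the machinery that moves, tethers and fuses vesicles. Each one cycles between an active GTP-bound form, made by an exchange factor, and an inactive GDP-bound form, made by a GTPase-activating protein, and each membrane carries its own set. In the preimplantation embryo this traffic is known to deliver adhesion proteins and transporters to the cell surface while the blastomeres polarise and the trophectoderm, the outer epithelium of the blastocyst, forms. The array held 48 probe sets that named exactly 1 gene with a RAB symbol, and these came from 39 genes among 9155 named genes. For each gene the probe set of highest mean signal over the 12 arrays was used, and 9 of the 39 genes had a second one.

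The RNA came from bovine embryos of the Japanese Black breed, matured, fertilised with frozen semen and cultured in vitro. The oocytes came from adult cows or from prepubertal heifers 9 to 12 months old. Embryos of normal morphology were taken at the 8-16-cell stage on day 3, 70 to 72 h after insemination, or as expanded blastocysts on day 7 before hatching. This gave 4 groups, adult 8-16-cell, prepubertal 8-16-cell, adult blastocyst and prepubertal blastocyst, each with 3 arrays that the labels call biological replicates. A pool held 50 embryos at the earlier stage and 10 at the later one, and the labels do not say how many donors fed a pool. A pool mixes cell types, so in all values below fewer cells of a type and less RNA per cell cannot be told apart. The comparisons ask how the RAB genes differ between the stages within each donor group, and between the donor groups at each stage.

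Values are log2(signal + 16), where the signal is the authors' linear intensity of a probe set, and a difference of 1 is a doubling for a signal well over 16. A signal counted as above background when it exceeded the brightest Bacillus subtilis control probe set of its array. That background lay between 121.8 and 423.8 on 11 arrays and at 1664.2 on prepubertal 8-16-cell replicate 3, where 1255 probe sets were above it against 4297 to 8500 on the others. Markers went with the stage labels: none of 6 measured trophectoderm genes was above background on all 3 arrays of an 8-16-cell group, while 6 in adult and 5 in prepubertal blastocysts were, and NANOG, CDX2 and GATA3 were not analysed here. SOX2, a pluripotency marker, was above background on no array, whereas POU5F1 was on all 6 blastocyst arrays. Of 10 cumulus and granulosa cell markers, STAR was above background on all 6 arrays of the 8-16-cell stage and HAS2 on all 6 of the blastocysts, and PTX3, AMH and FSHR on none. The summed signal of the 10 markers was 4280 to 17600 and 3480 to 15000 in adult and prepubertal 8-16-cell embryos against 1690 to 4160 and 1620 to 1950 in the blastocysts. The highest sums rest on few genes. VCAN gave 16300 on adult 8-16-cell replicate 3 and 10730 on prepubertal replicate 2, against 7.257 and 138.2 on replicate 1 of these groups. STAR gave 11340 on prepubertal 8-16-cell replicate 3. The part of such cells in the stage differences was not tested.

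Of the 39 RAB genes, RAB11A, RAB1A and RAB5A were above background on all 12 arrays, 14 genes were on 6 to 11 arrays, 18 on 1 to 5, and RAB25, RAB26, RAB3B and RAB9B on none. As shares these were 7.69%, 35.9%, 46.2% and 10.3% of the RAB genes, beside 4.42%, 30%, 50.4% and 15.3% of all named genes. On a single array 15 to 20 of the 39 were above background in adult 8-16-cell embryos, 3 to 16 in prepubertal 8-16-cell embryos, 19 to 21 in adult blastocysts and 19 to 22 in prepubertal blastocysts. The lowest number, 3, was on the array with the high background. Background was 121.8 to 250.6, 356.2 to 1664.2, 187.4 to 281.6 and 171.6 to 254.1 in these groups. Counts of arrays above background, here and below, thus meet a higher cutoff in prepubertal 8-16-cell embryos. They do not by themselves show a change between stages. The genes above background on all 3 arrays of a group numbered 10, 3, 15 and 11 in that order of groups (25.6%, 7.69%, 38.5% and 28.2%, against 20%, 6.5%, 22.9% and 25.7% of named genes).

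**Figure D1:**
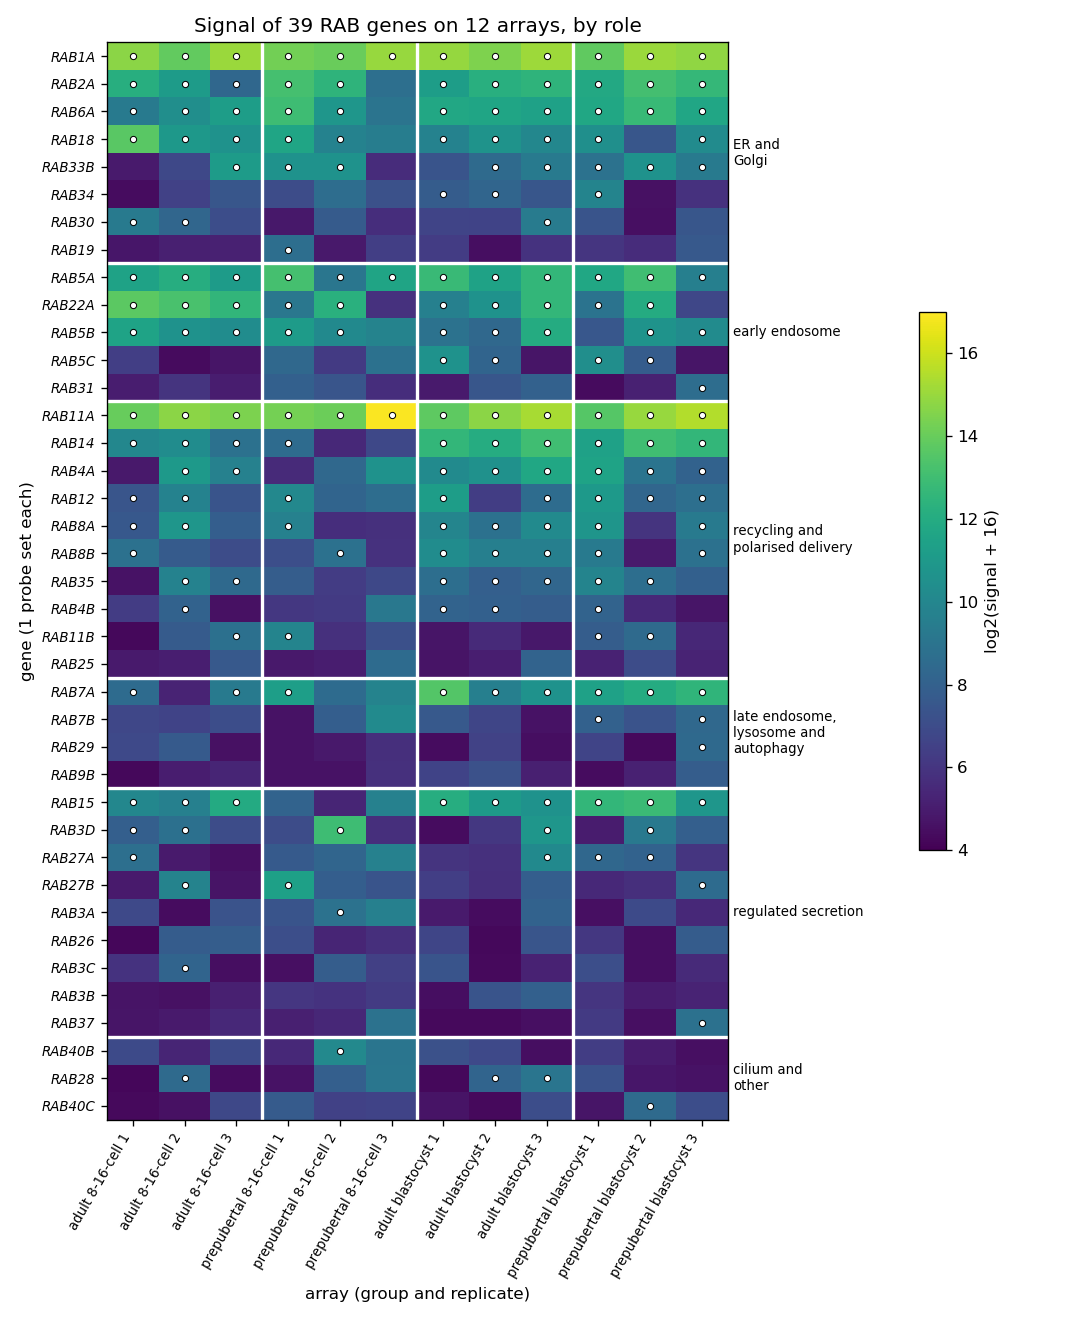
Log2(signal + 16) of the 39 RAB genes, ordered by role and then by mean (vertical axis), on each of the 12 arrays (horizontal axis, grouped by stage and donor); a white dot marks a signal above the array's background. RAB1A, RAB5A and RAB11A carry a dot on all 12 arrays, and the column of prepubertal 8-16-cell replicate 3 carries 3 dots.

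RAB14, which moves cargo between the Golgi and endosomes and back to the cell surface, was the gene that rose from the 8-16-cell stage to the blastocyst. In adult embryos its log2 signal was 10.00, 10.31 and 8.85 at the 8-16-cell stage and 12.63, 12.07 and 13.00 in blastocysts. In prepubertal embryos it was 8.54, 5.48 and 6.80 at the 8-16-cell stage and 11.44, 13.02 and 12.59 in blastocysts. All 6 blastocyst values lay above all 6 earlier ones, which held for 1 RAB gene of 39 (2.56%) and for 3.68% of named genes. The prepubertal group had the lower values at the 8-16-cell stage, with no overlap between the donor groups, and the donor groups overlapped in the blastocysts. The donor difference at the 8-16-cell stage, -2.78 (SE 1.38, adjusted p 0.542 in limma's moderated test), did not pass. With the prepubertal signals raised to their arrays' background the adult mean was 0.37 higher.

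Within prepubertal embryos the log2 difference of RAB14 was 5.41 (SE 1.38, 95% interval 2.69 to 8.13, n = 3 against 3), with an adjusted p of 0.0107 in limma's moderated test with Benjamini-Hochberg adjustment over all probe sets. Within adult embryos it was 2.85 (SE 1.38, interval 0.13 to 5.57) and did not pass, with an adjusted p of 0.401 in limma. The difference between these stage effects was 2.56 (SE 1.95, interval -1.28 to 6.41, adjusted p 0.951 in limma), so RAB14 was not shown to rise more in one donor group. The mean of both stage effects, a contrast added after the separate effects had been seen, was 4.13 (SE 0.98, interval 2.21 to 6.05, adjusted p 0.00158 in limma).

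The low end of the RAB14 difference rests on dim signals. In prepubertal 8-16-cell embryos 1 of 3 values was above background, at a signal of 356.5 against a background of 356.2, and with each signal of that group raised to its array's background the log2 difference is 3.01. The call in prepubertal embryos was lost with all signals raised to the highest background (difference 1.64, adjusted p 0.0832), and in limma without prepubertal 8-16-cell replicate 2 (4.68, adjusted p 0.0597), without prepubertal blastocyst replicate 2 (5.08, adjusted p 0.0915) or without replicate 3 of the same group (5.29, adjusted p 0.0674). Over all alternatives its adjusted p in limma lay between 0.00629 and 0.0915. Without the array of high background the difference was 5.34 (adjusted p 0.0117 in limma). The mean over both donor groups stayed past the threshold in every alternative run, with an adjusted p between 0.000674 and 0.00893 in limma.

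**Figure D2:**
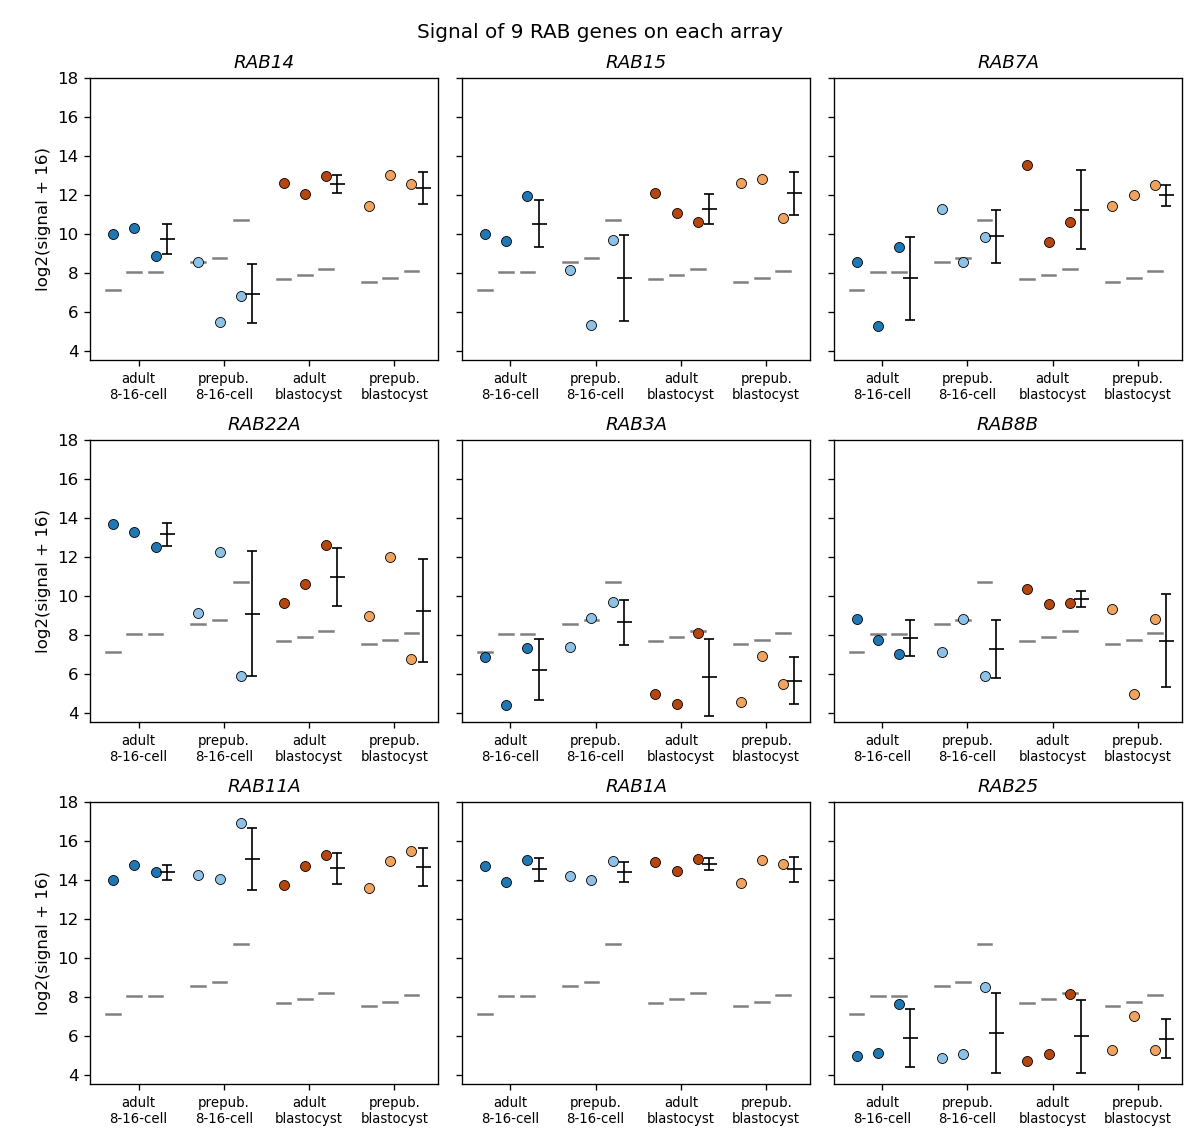
Log2(signal + 16) of 9 RAB genes (vertical axes) on each array of the 4 groups (horizontal axes): points are arrays in replicate order, grey ticks the background of the same array, and the black bar and whiskers the mean and SD of 3 arrays. RAB14 lies higher in all 6 blastocyst pools than in the 6 earlier ones, RAB11A and RAB1A lie above background everywhere, and RAB25 nowhere.

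Counted over the family, limma called 0 of 39 RAB genes between the stages in adult embryos, where it called 2.13% of all probe sets, 1.84% of named genes as higher and 1.33% as lower in blastocysts. In prepubertal embryos it called 1 gene higher (RAB14) and 0 lower, where it called 2.34% of all probe sets, 2.57% of named genes as higher and 1.39% as lower. For the mean of both donor groups it called RAB14 higher and 0 genes lower, beside 6.4% of all probe sets, 6.35% of named genes as higher and 3.53% as lower. At 1 of 39, the prepubertal count is near the background and says nothing particular about the family. At an unadjusted p under 0.05 the counts were 2 genes in adult embryos (5.13%, against 15.1% of named genes), 4 in prepubertal embryos (10.3% against 17.3%) and 3 in the mean (7.69% against 21.8%).

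The median log2 difference between stages over the 39 genes was 0.53 in adult embryos, against 0.08 over all probe sets and 0.13 over named genes, and 26 of 39 lay above zero. In prepubertal embryos it was 0.02, against -0.37 and -0.16, with 20 of 39 above zero. The RAB median thus lay 0.45 and 0.39 above that of all probe sets, and 0.39 and 0.18 above that of named genes, which like the RAB genes are each read on their brightest probe set. With quantile normalization the RAB median was 0.489 in adult and 0.06 in prepubertal embryos, against 0.019 and 0.055 over named genes, so in prepubertal embryos the gap all but closed. With median centring the RAB medians were 0.379 and 0.211, against -0.015 and 0.03. The stage difference had the same sign in both donor groups for 21 of 39 RAB genes (53.8%, against 61.7% of named genes). For a single RAB gene the SE of the log2 stage difference was 1.37 at the median.

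**Figure D3:**
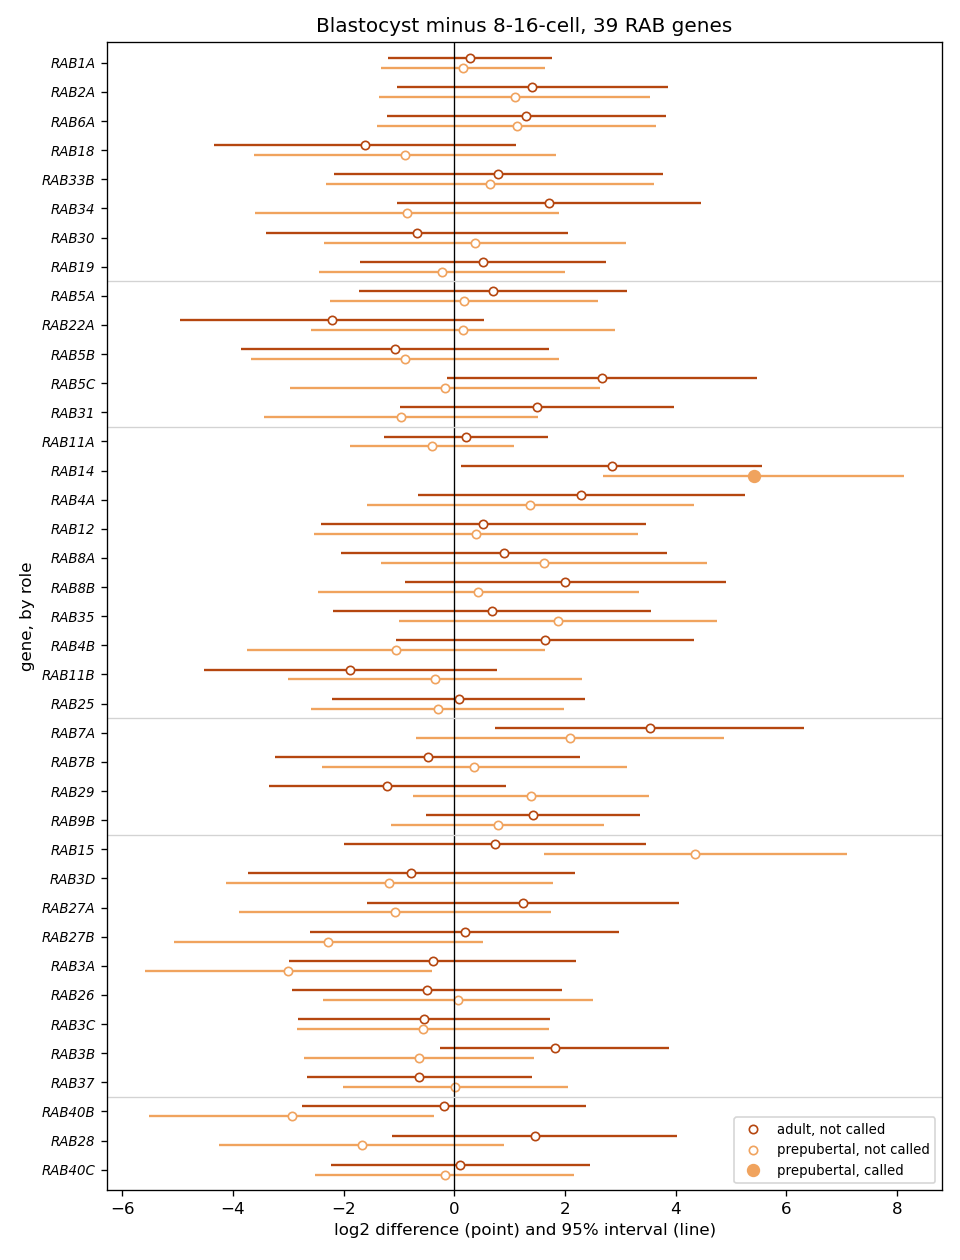
Log2 difference, blastocyst minus 8-16-cell, of each RAB gene (vertical axis, by role, grey lines between roles) in adult and in prepubertal embryos; points are differences of 3 against 3 arrays, lines 95% intervals from the fit over all 12 arrays, filled points passed an adjusted p of 0.05. RAB14 in prepubertal embryos, at 5.41, is the filled point.

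The RABs of the endoplasmic reticulum and Golgi comprised 8 genes, of which 0 were called by limma in either stage comparison. RAB1A, which drives transport from the endoplasmic reticulum to the Golgi, had log2 signals of 14.74, 13.89 and 15.05 in adult and 14.24, 14.01 and 15.00 in prepubertal 8-16-cell embryos. In blastocysts they were 14.92, 14.49 and 15.11 in adult and 13.84, 15.03 and 14.83 in prepubertal pools. The 4 groups overlapped throughout, and the mean stage difference of 0.22 (SE 0.53) had an interval of -0.83 to 1.27.

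RAB2A, which acts between the Golgi and the endoplasmic reticulum, had log2 signals of 12.15, 11.12 and 8.33 in adult 8-16-cell, 13.19, 12.44 and 8.74 in prepubertal 8-16-cell, 11.22, 12.19 and 12.44 in adult blastocyst and 11.85, 13.14 and 12.67 in prepubertal blastocyst pools. In both donor groups replicate 3 was the low one at the 8-16-cell stage, and the groups overlapped. RAB6A, of retrograde transport from endosomes to the Golgi and within it, had 9.36, 10.44 and 11.24, then 12.97, 10.85 and 8.99, then 11.82, 11.65 and 11.46, and then 11.73, 12.75 and 11.70 in the same order of groups. In adult embryos all 3 blastocyst values of RAB6A lay above the earlier ones (log2 difference 1.30, SE 1.28, adjusted p 0.833 in limma), and in prepubertal embryos they overlapped.

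The other Golgi members were more often dim. RAB18, found on the endoplasmic reticulum and lipid droplets, was above background on 5 of 6 arrays at each stage, with log2 stage differences of -1.61 in adult and -0.89 in prepubertal embryos. RAB33B, a Golgi RAB linked to autophagosome formation, was above background on 3 of 6 arrays of the 8-16-cell stage and 5 of 6 of the blastocysts. RAB34, which positions lysosomes and takes part in cilium formation, was so on 0 and 3, RAB30 of the Golgi on 2 and 1, and RAB19 on 1 and 0. The adult values of RAB34 did not overlap between stages (4.43, 6.49 and 7.49, then 7.77, 8.25 and 7.50), but the step between 7.49 and 7.50 is smaller than the spread within either group.

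The 5 early endosome RABs held 0 called genes by limma. RAB5A, the organiser of early endosome fusion, was above background on all 12 arrays, at 11.51, 12.12 and 11.16 in adult and 13.17, 9.11 and 11.57 in prepubertal 8-16-cell embryos, and at 12.80, 11.49 and 12.62 in adult and 11.75, 13.01 and 9.60 in prepubertal blastocysts, as log2 signals. The groups overlapped, with a mean stage difference of 0.44 (interval -1.28 to 2.15). Its paralogue RAB5B was above background on 5 of 6 arrays at each stage, with log2 stage differences of -1.07 in adult and -0.89 in prepubertal embryos.

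RAB5C, the third paralogue, was above background on 0 of 6 arrays of the 8-16-cell stage and on 4 of 6 of the blastocysts. The cutoff differed between arrays: signals of 319.8 and 441.8 were below it in prepubertal 8-16-cell pools, and 205.1 was above it in a prepubertal blastocyst pool. Its log2 signals in adult embryos were 6.42, 4.40 and 4.75 and then 10.65, 8.20 and 4.73, and in prepubertal embryos 8.39, 6.21 and 8.84 and then 10.40, 7.79 and 4.75. Replicate 3 was the lowest blastocyst in both donor groups and the stages overlapped in both, and the adult log2 difference of 2.67 (SE 1.42) had an adjusted p of 0.491 in limma. RAB31, of transport from the Golgi to endosomes, was above background on 1 blastocyst array and no other.

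RAB22A, which sorts cargo from early endosomes into recycling, carried the largest donor difference of the family. At the 8-16-cell stage its log2 signal was 13.72, 13.28 and 12.54 in adult and 9.15, 12.27 and 5.87 in prepubertal embryos, and in blastocysts 9.65, 10.64 and 12.61 in adult and 8.97, 12.02 and 6.76 in prepubertal pools. All 3 adult values lay above the prepubertal ones at the 8-16-cell stage, while the blastocyst groups overlapped. The log2 difference of -4.08 at the 8-16-cell stage (SE 1.39, interval -6.83 to -1.34, unadjusted p 0.00376) had an adjusted p of 0.387 in limma and did not pass. With the prepubertal signals raised to their arrays' background the adult mean was 2.47 higher, and the adjusted p in limma lay between 0.107 and 0.815 over the alternatives. The second probe set of RAB22A differed by -0.12 (SE 1.37) in the same comparison. That of RAB5B differed by -4.09 there (SE 1.55, adjusted p 0.429 in limma), where its brighter probe set gave -0.46.

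The 10 RABs of recycling and polarised delivery included RAB14 and 9 others that limma did not call. RAB11A, the main RAB of the recycling endosome and of apical delivery, had log2 signals of 13.99, 14.76 and 14.44 in adult and 14.27, 14.06 and 16.94 in prepubertal 8-16-cell embryos, and 13.77, 14.75 and 15.30 in adult and 13.58, 14.99 and 15.48 in prepubertal blastocysts. The groups overlapped, and the value of 16.94 came from the array with the high background. Its mean stage difference was -0.10 (interval -1.15 to 0.95). RAB11B, a close paralogue, was above background on 2 of 6 arrays at each stage, and RAB25, the epithelial relative of both, on 0.

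RAB4A, of fast recycling from early endosomes, was above background on 2 of 6 arrays of the 8-16-cell stage and on all 6 of the blastocysts. Its log2 signals in adult embryos were 4.87, 11.05 and 9.72 and then 10.23, 10.58 and 11.72, and in prepubertal embryos 5.55, 8.38 and 10.62 and then 11.55, 9.01 and 8.11. The stages overlapped in both donor groups, and the mean difference of 1.83 (SE 1.06) had an adjusted p of 0.396 in limma. Its paralogue RAB4B was above background on 1 and 3 of 6 arrays at the earlier and the later stage.

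RAB8A and RAB8B, which carry membrane to the cell surface and to cilia, were above background on 3 and 2 of 6 arrays of the 8-16-cell stage and on 5 of 6 arrays each in blastocysts. RAB8B had 8.84, 7.73 and 7.01 in adult 8-16-cell and 10.34, 9.61 and 9.63 in adult blastocyst pools as log2 signals, with no overlap, and 7.10, 8.83 and 5.87 and then 9.31, 4.95 and 8.84 in prepubertal pools, with overlap. Its adult stage difference of 2.00 (SE 1.47) had an adjusted p of 0.725 in limma. RAB35, of recycling and cytokinesis, was above background on 2 and then 5 of 6 arrays. Its prepubertal values did not overlap between stages (7.81, 6.31 and 6.80, then 9.86, 8.68 and 7.99, log2 difference 1.87, SE 1.46, adjusted p 0.623 in limma). None of its prepubertal 8-16-cell values was above background, and with them raised to it the difference was -0.50. RAB12, which directs receptors from recycling endosomes towards degradation, was above background on 3 and 5 of 6 arrays.

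Of the 4 RABs of late endosomes, lysosomes and autophagy, RAB7A, the organiser of late endosome and lysosome traffic, was the one seen in most pools. Its log2 signals in adult embryos were 8.54, 5.29 and 9.34 at the 8-16-cell stage and 13.53, 9.60 and 10.64 in blastocysts, and in prepubertal embryos 11.28, 8.56 and 9.82 and then 11.43, 12.01 and 12.51. The blastocyst values lay above the earlier ones without overlap within each donor group, although the prepubertal 8-16-cell values overlapped with the adult blastocyst ones. The log2 difference was 3.53 (SE 1.41, interval 0.74 to 6.32, adjusted p 0.227 in limma) in adult and 2.10 (SE 1.41, adjusted p 0.544) in prepubertal embryos, and 2.81 (SE 0.999, adjusted p 0.0722) in their mean. None of these passed. The mean would pass without adult 8-16-cell replicate 3 (3.22, adjusted p 0.0432 in limma) or without prepubertal 8-16-cell replicate 1 (3.16, adjusted p 0.0486), and with dim probe sets left out of the test (2.81, adjusted p 0.0463). It did not pass in the other 19 of 22 alternatives. Over all of them it lay between 1.01 and 3.23, with an adjusted p up to 0.335 in limma.

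The second probe set of RAB7A gave another picture in adult embryos. Its log2 signals were 8.84, 9.86 and 8.52 at the adult 8-16-cell stage and 7.31, 8.64 and 7.28 in adult blastocysts, a difference of -1.33 (SE 1.47), where the brighter probe set gave 3.53. In prepubertal embryos it gave 2.21 where the brighter one gave 2.10. In the mean of both donor groups it gave 0.44 (SE 1.04, adjusted p 0.903 in limma), where the brighter one gave 2.81. Which of them follows the RAB7A transcript better was not tested. RAB7B, RAB29 and RAB9B were above background on 0 of 6 arrays of the 8-16-cell stage, and on 2, 1 and 0 of 6 arrays of the blastocysts.

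The 9 RABs of regulated secretion were dim except for RAB15, which also acts on recycling endosomes. Its log2 signals in adult embryos were 10.00, 9.66 and 11.93 at the 8-16-cell stage and 12.11, 11.09 and 10.61 in blastocysts, and in prepubertal embryos 8.15, 5.33 and 9.69 and then 12.60, 12.85 and 10.81. The prepubertal stages did not overlap, and none of the 3 prepubertal 8-16-cell values was above background, whereas the adult stages overlapped. In prepubertal embryos the blastocyst mean of RAB15 was 6.68-fold over the 8-16-cell mean raised to background. The log2 difference was 4.36 (SE 1.39, interval 1.62 to 7.10), but its adjusted p of 0.0665 in limma did not pass. It did pass without prepubertal 8-16-cell replicate 3, the array of high background (5.34, adjusted p 0.0165 in limma).

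In adult embryos the RAB15 stage difference was 0.74 (SE 1.39, adjusted p 0.945 in limma), and the difference between the stage effects, 3.62 (SE 1.96, interval -0.25 to 7.49, adjusted p 0.927), was the largest in size among the 39 genes and did not pass. Prepubertal minus adult at the 8-16-cell stage the RAB15 difference was -2.81 (SE 1.39, interval -5.55 to -0.07, adjusted p 0.539 in limma), and the donor groups overlapped. The adult mean was 2.28-fold over the prepubertal mean raised to background.

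RAB3A, a regulator of synaptic vesicle and cortical granule release, was above background on 1 of 12 arrays. Its log2 signals were 6.88, 4.41 and 7.33 in adult 8-16-cell, 7.39, 8.89 and 9.67 in prepubertal 8-16-cell, 4.95, 4.43 and 8.08 in adult blastocyst and 4.54, 6.94 and 5.48 in prepubertal blastocyst pools. The prepubertal 8-16-cell values lay above both the adult ones of that stage and the prepubertal blastocysts, with log2 differences of 2.44 (adjusted p 0.578 in limma) between donors and -3.00 (SE 1.31, adjusted p 0.256) between stages. Of its 3 values there, 1 was above background, and the highest, 9.67, came from the array of high background and was not.

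The other secretion RABs gave no call. RAB3D and RAB27A, of secretory and lysosome-related granules, were above background on 3 and 1 of 6 arrays of the 8-16-cell stage and 2 and 3 of 6 of the blastocysts. RAB27B was so on 2 and 1, RAB3C on 1 and 0, RAB37 on 0 and 1, and RAB26 and RAB3B on none. RAB3B had a log2 difference of 1.81 between stages in adult embryos (SE 1.05, adjusted p 0.56 in limma) with all 12 signals below background, so no fold is given.

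The remaining RABs were RAB28, linked to cilia, and RAB40B and RAB40C, which carry a SOCS box and bind ubiquitin ligase subunits. RAB40B had log2 signals of 5.51, 10.12 and 9.07 in prepubertal 8-16-cell and 6.37, 4.98 and 4.53 in prepubertal blastocyst pools, with 1 of the 6 above background. The stages overlapped, and the difference of -2.94 (SE 1.30) had an adjusted p of 0.265 in limma. RAB28 was above background on 1 of 6 arrays of the 8-16-cell stage and 2 of 6 of the blastocysts, and RAB40C on 0 and 1.

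Groups without overlap, 3 arrays against 3, were counted for the whole family. In adult embryos 5 RAB genes lay higher in blastocysts (RAB14, RAB34, RAB6A, RAB7A and RAB8B, 5 of 39 beside 12.1% of named genes) and 1 lower (RAB37, beside 8.92%). In prepubertal embryos 4 lay higher (RAB14, RAB15, RAB35 and RAB7A, beside 10.8%) and 1 lower (RAB3A, beside 8.91%). RAB14 and RAB7A lay higher in both donor groups, 5.13% of the RAB genes against 4.73% of named genes. No adult value of RAB37 was above background at either stage, so its order there lies within dim signals. In prepubertal 8-16-cell embryos no value of RAB15 or RAB35 was above background.

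Between the donor groups limma called 0 of 39 RAB genes at either stage. At the 8-16-cell stage it called 5 of all probe sets (0.0208%), and 3 RAB genes had an unadjusted p under 0.05 (7.69%, against 8.75% of named genes), namely RAB22A, RAB14 and RAB15, each with the lower mean in prepubertal embryos. In blastocysts limma called 0 of all probe sets (0%), and 1 RAB gene, RAB37, had an unadjusted p under 0.05 (2.56% against 3.9%). The difference of the stage effects between donor groups gave 0 calls over the array (0%) and 0 RAB genes with an unadjusted p under 0.05, against 5.69% of named genes. No alternative setting called a RAB gene in these 3 comparisons.

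At the 8-16-cell stage the median log2 difference, prepubertal minus adult, was 0.67 over the RAB genes and 0.59 over all probe sets. On these arrays the donor groups differed in technical values too: the number of probe sets above background differed by -2806 in prepubertal pools, and the median of their hybridization controls was 3.1-fold higher (exact two-sided permutation p 0.1 for each, the smallest that 3 against 3 can give). The part of these in the RAB differences was not tested. Scaling moves the median of all probe sets, from 0.59 to 0.05 with quantile normalization, and that of the RAB genes from 0.67 to 0.12. RAB14 and RAB22A lay lower without overlap in prepubertal embryos (2 of 39, beside 3.53% of named genes), and RAB3A and RAB3B higher (beside 8.74%).

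In blastocysts the median donor difference was -0.12 over the RAB genes and 0.16 over all probe sets, and prepubertal pools had 1887 more probe sets above background (exact permutation p 0.1). RAB37, of mast cell and other granule release, had log2 signals of 4.35, 4.34 and 4.55 in adult and 6.22, 4.55 and 8.83 in prepubertal blastocysts, the gene that lay higher without overlap (beside 6.39% of named genes), with 1 value above background and a margin lost in rounding. RAB8B, with 10.34, 9.61 and 9.63 against 9.31, 4.95 and 8.84, lay lower without overlap (beside 3.84%), with a log2 difference of -2.16 (SE 1.47, adjusted p 1 in limma).

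RAB11B and RAB4B completed the smallest p-values of the donor comparison in blastocysts, and neither passed. RAB11B had 4.75, 5.57 and 4.85 in adult and 7.83, 8.49 and 5.47 in prepubertal blastocysts as log2 signals, with overlap and a difference of 2.20 (SE 1.35). RAB4B had 8.12, 7.97 and 7.84 against 8.13, 5.49 and 4.75, with overlap and a difference of -1.86 (SE 1.37). For the stage effect of the prepubertal minus that of the adult group, the smallest p after RAB15 were those of RAB28 (-3.13, SE 1.84), RAB29, a RAB of the Golgi and stressed lysosomes (2.60, SE 1.53), and RAB3B (-2.46, SE 1.49), each with an adjusted p of 0.938 in limma.

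**Figure D4:**
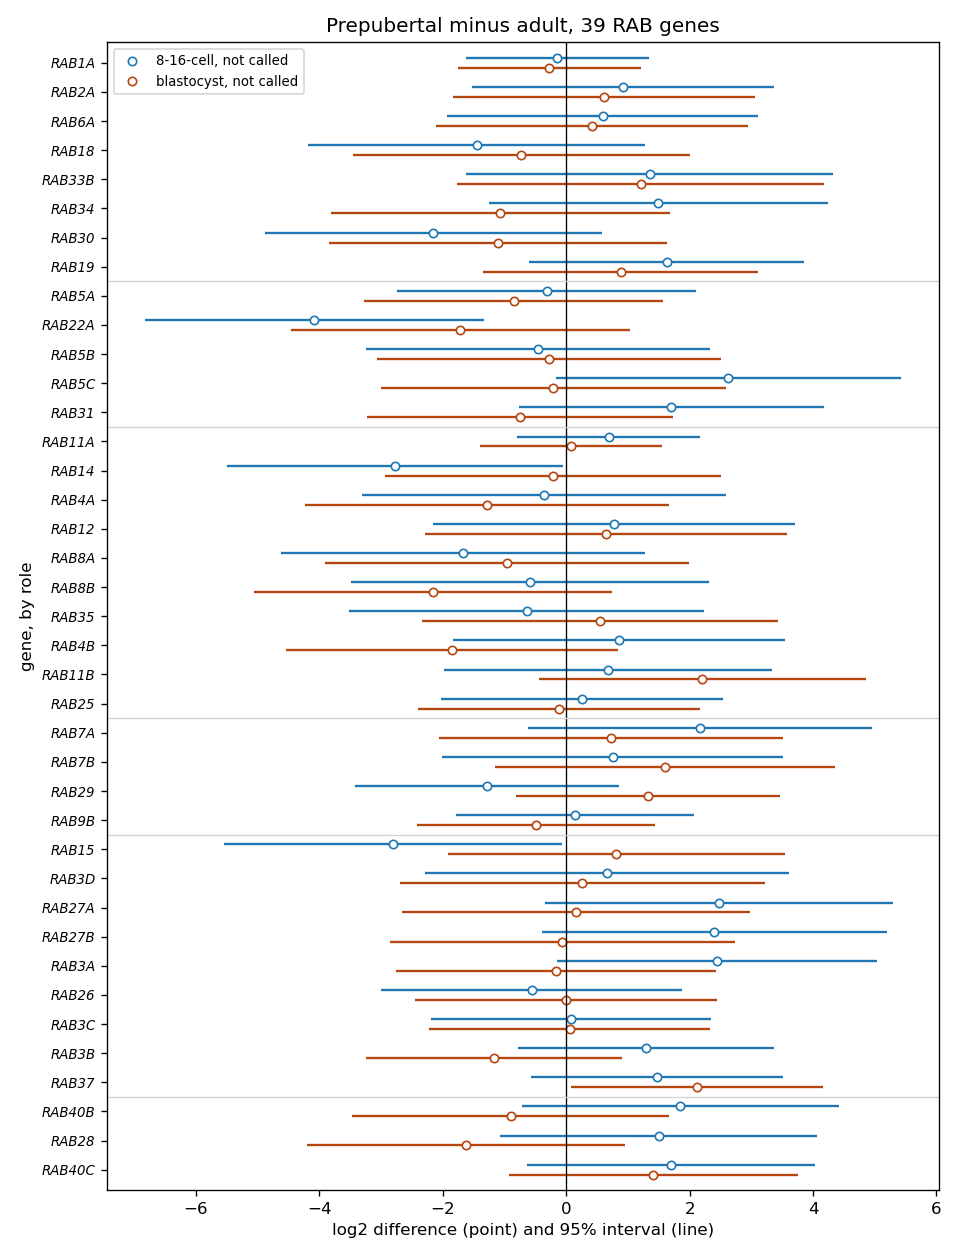
Log2 difference, prepubertal minus adult, of each RAB gene (vertical axis, by role, grey lines between roles) at the 8-16-cell stage and in blastocysts; points are differences of 3 against 3 arrays and lines 95% intervals from the fit over all 12 arrays. No point passed an adjusted p of 0.05, and RAB22A at the 8-16-cell stage, at -4.08, lies farthest from zero.

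Among the 9 genes with 2 probe sets, both gave the same sign of the stage difference for 7 in adult embryos, all but RAB3A and RAB7A, and for 6 in prepubertal embryos, all but RAB22A, RAB35 and RAB6A. No second probe set was called. The second one of RAB5B, at -3.96 in adult embryos (SE 1.55, adjusted p 0.207 in limma), had the same sign as the brighter one at -1.07.

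The partners of the RABs were counted over 8 lists with 132 measured genes: prenylation and extraction, exchange factors, GTPase-activating proteins, effectors, retromer, exocyst, SNARE fusion proteins, and the related ARF GTPases. Between stages limma called 1 of these higher in blastocysts and 1 lower in adult embryos (0.758% each), and 3 higher (2.27%) and 0 lower in prepubertal embryos, beside 1.84%, 1.33%, 2.57% and 1.39% of named genes in the same order. In the mean of both donor groups 9 were higher (6.82%) and 4 lower (3.03%), beside 6.35% and 3.53%. In both donor comparisons and the difference of the stage effects 0 of 132 were called. Unlike those of the RAB genes, the calls of these partners were not checked under the alternative settings or with an array left out.

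The retromer and its sorting nexins, which return receptors from endosomes to the Golgi and the cell surface and whose core RAB7A recruits, were measured for 9 of 9 genes. Their median log2 stage difference was 2.30 in adult and 2.30 in prepubertal embryos, against 0.08 and -0.37 over all probe sets. SNX2 rose in both. In adult embryos its log2 signals were 4.96, 8.99 and 4.40 and then 11.82, 11.18 and 11.15 (difference 5.27, SE 1.48, adjusted p 0.0295 in limma). In prepubertal embryos they were 5.75, 5.95 and 8.63 and then 10.83, 12.52 and 12.26 (difference 5.09, interval 2.17 to 8.01, adjusted p 0.0356 in limma). There the blastocyst mean was 5.76-fold over the earlier mean raised to background. The stages did not overlap in either donor group. Averaged over both donor groups, VPS26A, of the cargo-selective core (3.88, SE 0.99, adjusted p 0.00433 in limma), and SNX3 (2.97, SE 0.91, adjusted p 0.0247) rose as well, and the other 6 genes of the list did not pass.

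Among the genes that switch RABs off, TBC1D20, a GTPase-activating protein for RAB1, rose in prepubertal embryos from 6.02, 9.34 and 6.82 to 12.41, 12.85 and 14.47 as log2 signals, without overlap (difference 5.85, SE 1.46, adjusted p 0.00888 in limma). The remaining 19 genes of that list did not pass there. Averaged over both donor groups, TBC1D4, which acts on RABs of glucose transporter vesicles, rose too (3.81, SE 1.02, adjusted p 0.00721 in limma). Of 25 exchange factors none was called within a donor group, and SBF2 rose in the mean (3.07, SE 0.98, adjusted p 0.0368). Its stages did not overlap in adult embryos (4.42) but did in prepubertal ones (1.72, interval -1.03 to 4.46).

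Of 24 effectors limma called none within a donor group. Averaged over both donor groups, USO1, a RAB1 effector that tethers vesicles to the Golgi (4.13, SE 1.04, adjusted p 0.00378 in limma), and RBSN, an effector of RAB4 and RAB5 (3.44, SE 1.01, adjusted p 0.0188), rose. SYTL2, an effector of RAB27 in secretion, fell by 4.54 on the log2 scale (SE 1.01, adjusted p 0.000644). The 7 exocyst genes and the 3 prenylation and extraction genes gave no call in any comparison.

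Of 32 SNARE genes, SNAP25, of regulated exocytosis, fell in adult embryos from log2 signals of 12.16, 11.75 and 10.69 to 4.35, 7.37 and 5.03. The difference was -5.95 (interval -8.79 to -3.12, adjusted p 0.00709 in limma), and the earlier mean was 12.2-fold over the blastocyst mean raised to background. VTI1B, of endosome fusion, rose in prepubertal embryos from 5.08, 7.29 and 9.67 to 12.59, 12.40 and 12.28. The difference was 5.08 (interval 2.22 to 7.93, adjusted p 0.0305 in limma), and the blastocyst mean was 8.45-fold over the earlier mean raised to background. The mean over both donor groups called SNAP25, VTI1B and VAMP7, with VAMP7, of lysosomal fusion, falling (difference -3.28, SE 1.05, adjusted p 0.0363). The VAMP7 stages did not overlap in adult embryos (-3.63) but did in prepubertal ones (-2.94).

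Of 12 measured genes of the related ARF family limma called none within a donor group, and for the mean of both donor groups ARL6, of ciliary traffic, fell (difference -3.29, SE 1.05, adjusted p 0.0349). Its stages did not overlap in adult embryos (-4.32) but did in prepubertal ones (-2.25, interval -5.17 to 0.67).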

How the data were processed

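Amplified RNA of 12 embryo pools was hybridised to an Affymetrix bovine array. The authors deposited a linear signal intensity per probe set, made with MAS5 per the submitters' processing notes, with its version and settings not given in the sources used here. MAS5 reads each array alone, and trimmed means of 500.19 to 500.31 show scaling to a common level. Of 24128 probe sets, 112 controls were left out and 24016 tested. Names came from the platform annotation: 13292 probe sets named 1 gene, 86 several and 10638 none, and all 39 RAB symbols were current by gene identifier. Another 3 probe sets, which name a RAB and a second gene, were left out. No column of another sample was present (0 columns), and 2 arrays shared at most 0.00414% of their values.

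Log2(signal + 16) was fitted with a mean for each of 4 groups over all 12 arrays in limma 3.58.1 with R 4.3.3 (lmFit, eBayes with a trend, residual degrees of freedom 8, prior 195.66, so a probe set's own spread weighs little). The moderated test was two-sided, adjusted by Benjamini and Hochberg over all probe sets and called at 0.05. The script was tested on simulated data. For quantities with 1 value an array, an exact permutation test (two-sided) was used. The number of arrays, 3 per group, limits the precision. The p-values rest mostly on a spread between pools shared by probe sets of similar mean signal, and little on a gene's own. Background was the brightest of 27 Bacillus subtilis control probe sets of an array, and whether these were spiked in was not checked. A spike-in would make it too high. A fold over a mean raised to background sets the brighter group against the dimmer one raised to its arrays' background, given where all 3 dim arrays were not above it. It does not take in the spread between pools, for which the interval is given.

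The members, lists and tests were chosen with earlier results of these data known. Values are given for each RAB gene called, for the 4 of smallest p in comparisons with fewer than 4 calls and for the 5 of highest mean signal. From each list the called genes were named, and another list is not reported here. RAB genes without overlap, on the second probe set or described by role were chosen after their values were seen. Signals of different probe sets are not compared as amounts. Deviations from the group means of same-numbered arrays correlated between -0.025 and 0.049 over 18 pairs (0 over 0.1), so no array-wide pairing by number was seen. An effect of shared numbers on fewer probe sets was not tested. Alternatives changed the pseudocount (1 or 64), the normalization (quantile, median), a floor at the highest background, a filter on dim probe sets, the moderation, array weights, a replicate block, the arrays in the fit, the probe set rule and each array left out.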

Additional observations from a re-analysis of the deposited data

How the results depend on the processing

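RAB counts were 0 in adult embryos between stages, in both donor comparisons and in the difference of the stage effects under every alternative run. In prepubertal embryos the count of 1 (RAB14) became 2 with quantile normalization, with the filter on dim probe sets and with array weights, where RAB15 joined, and 0 with signals raised to the highest background. Leaving out 1 array gave 0 to 2. In the mean of both donor groups the count of 1 became 2 with the dim filter, where RAB7A joined RAB14, and with array weights, where RAB15 did, and leaving out 1 array gave 1 to 2. Over 24 single-gene results, 522 alternative values held 509 on the same side of the threshold, 4 that lost a call, 9 that gained one and 0 that changed direction. Most of the 24 were not called in the main fit and were picked for small p. A stable side and direction were thus likely from the start. The 4 lost calls were all of RAB14 in prepubertal embryos, out of 23 alternatives. With the floor no value could be had for a gene at the floor on all arrays compared. Causes were not tested beyond the fewer genes that the floor and the dim filter leave.

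With the replicate block the RAB counts were 0, 1 and 0 for the stage in adult embryos, the stage in prepubertal embryos and the donors at the 8-16-cell stage, 0 for the donors in blastocysts and for the difference of the stage effects, and 1 for the mean of both donor groups, so the block changed no RAB count. Over all probe sets, called counts ranged from 241 to 889 for the stage in adult embryos, 272 to 682 in prepubertal embryos, 603 to 1740 in their mean, 0 to 17 for donors at the 8-16-cell stage, 0 to 2 in blastocysts and 0 to 1 for the difference of effects. The median RAB value of that last difference was -0.32, and turned to 0.09 with quantile normalization and 0.02 with median centring. Where 18 of 39 RAB genes were above background on 1 to 5 arrays and 4 on none, signal over background limits what can be seen.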
